A study of Rattus norvegicus with 24 samples.

Results

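The nucleus accumbens (NAc) of male rats given fentanyl was compared with that of male rats given saline. The 7 libraries were all of the count tables whose animal code begins with N or SM and whose region is the NAc, out of 24 libraries in the series. The fentanyl group held 4 rats (N1, N2, N3 and N7) and the saline group 3 rats (SM1, SM3 and SM4), each library coming from a different rat. All were male Sprague Dawley rats, and the labels give neither a genotype nor an age, dose or length of treatment. Per the series title, the work concerned opioid withdrawal and how rats choose between fentanyl and food. Brains were taken at the hour of what would have been the last choice session, without anesthesia, and the NAc was punched from both sides of coronal slices. A female series with the same number of rats per group (L and SF codes), and ventral tegmental area (VTA) libraries from 5 of the 7 males, served as references.

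The NAc is the ventral part of the striatum. Most of its neurons are GABAergic spiny projection neurons, and it receives dopamine axons from the VTA and glutamate inputs from cortex, hippocampus and amygdala. Fentanyl is an agonist of the mu-opioid receptor, which occurs on NAc neurons and on the interneurons that restrain VTA dopamine cells. Repeated opioid exposure and its withdrawal are known to alter transmission in this circuit.

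Total counts were 3.74 to 4.11 M in the fentanyl and 3.46 to 4.23 M in the saline libraries, set against about 22 M reads per library stated in the labels. Between 18008 and 18435 genes had a count in a library. RNA integrity numbers over the whole series were 8.0 to 9.2, per the labels. Scaling factors ran from 0.938 to 1.06. The libraries of a group were not copies of each other: the chi-square per degree of freedom over genes with at least 50 counts was 2.61 to 5.09 between fentanyl libraries and 5.87 to 8.23 between saline libraries. With mitochondrial features set aside, these became 2.49 to 4.72 and 3.62 to 4.75. The gene-by-gene spread was alike in the groups, with a median SD of log2 CPM of 0.201 for fentanyl and 0.199 for saline, and the saline SD was the larger one in 49.6% of genes. CPM is the count divided by the scaled library total and set to a common total.

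The identity of the punches was examined with sets of genes defined on 5 female rats that gave both regions, since the gene IDs could not be paired with the names of striatal or dopamine cell markers here. A set of 499 genes was at least 4-fold higher in the female NAc, and 483 of them were tested in the males. Their summed level was 61230, 52272, 52238 and 60191 CPM in N1, N2, N3 and N7, and 53685, 61784 and 60474 CPM in SM1, SM3 and SM4. In the VTA libraries of males, the 313 of these genes measured there summed to 7820 to 9301 CPM. A second set of 365 genes, 157 of them tested, was at least 4-fold higher in the female VTA. It summed to 1527 to 1892 CPM with fentanyl and 1437 to 1832 CPM with saline in the male NAc, against 15806 to 19239 CPM in the male VTA. The treatment groups overlapped in both sums, which did not differ by more than the rats varied (exact two-sided permutation p = 0.543 and 0.743). In punched tissue, fewer cells of a type and less RNA per cell cannot be told apart.

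The question was how large the difference between fentanyl and saline was, gene by gene, and how large a difference these 7 rats could have hidden. Of 32552 genes listed, 22901 had a count in a male NAc library and 13248 passed the low-count filter. No gene passed the test: edgeR's quasi-likelihood test called 0 of 13248 genes (0%) at a Benjamini-Hochberg adjusted p under 0.05, and the lowest adjusted p was 0.322. Without adjustment, 850 genes (6.42%) had a p under 0.05, of which 461 (3.48%) were higher and 389 (2.94%) lower with fentanyl; 211 had a p under 0.01 and 24 under 0.001. DESeq2 called 6 genes and limma voom called 0. All 4 fentanyl libraries lay above or below all 3 saline libraries in 1089 genes (8.22%), 564 higher and 525 lower. With only 35 regroupings of 4 and 3 libraries, some genes separate in this way without any effect. Both conditions, this and an unadjusted p under 0.05, were met by 531 genes.

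Most estimates were small. The median log2 fold change was 0.0033, and 50.6% of the genes had a positive value; the scaling of library totals centres the values, so these do not bear on a shift common to all genes. Ignoring sign, the median was 0.144 on the log2 scale, a 1.10-fold difference. This lay below the median SE of 0.194, so the sizes are estimates that include sampling error. The 90th, 95th and 99th percentiles were 0.463, 0.630 and 0.993. A difference of more than 1.5-fold was estimated in 780 genes, of more than 2-fold in 130 and of more than 4-fold in 10.

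**Figure D1:**
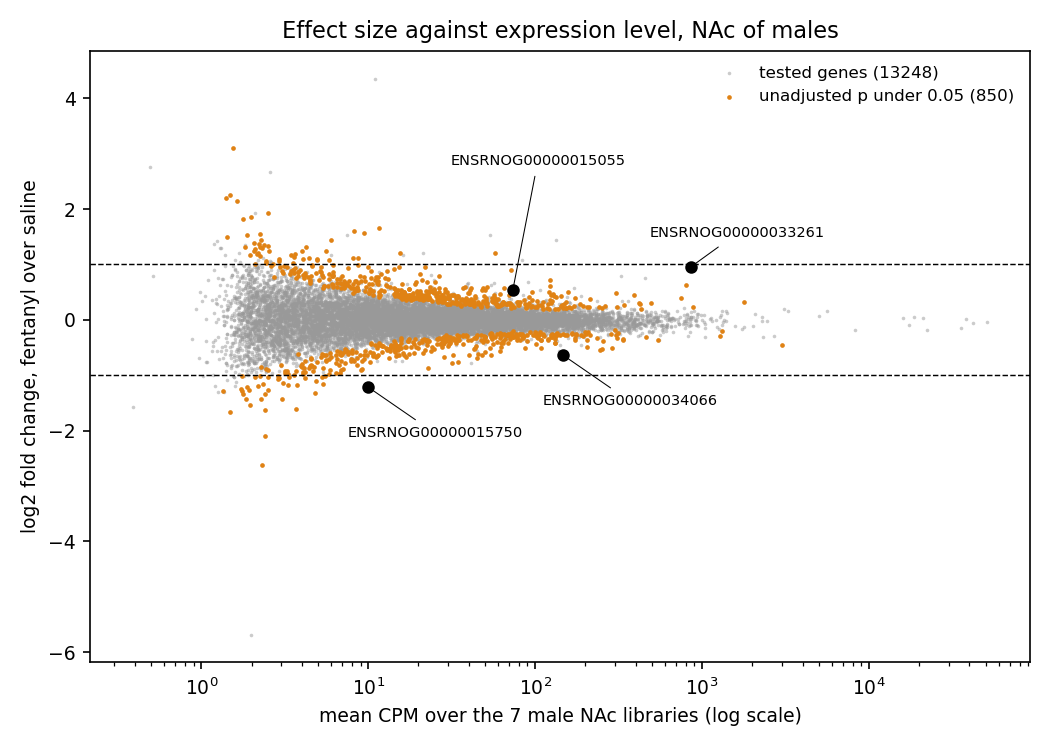
Each point is 1 of the 13248 tested genes, placed by its mean CPM over the 7 male NAc libraries (log scale) and by its log2 fold change of fentanyl over saline; orange points have an unadjusted p under 0.05, dashed lines mark 2-fold, and the black points are the 4 genes described by ID. The spread narrows with level: 120 of the 130 genes beyond 2-fold have a mean under 10 CPM.

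The plot of effect size against expression level shows that the large estimates belonged to genes with few counts. Of the 130 genes beyond 2-fold, 77 were higher and 53 lower with fentanyl, and 120 had a mean under 10 CPM. An unadjusted p under 0.05 was reached by 88 of them, and 60 had no overlap between the groups, beside 6.42% and 8.22% of all genes. When each library was left out in turn, 31 of the 130 stayed beyond 2-fold in all 7 fits and 113 kept their sign, while 11 dropped out of at least 1 fit by the low-count filter. None of the 10 genes beyond 4-fold had a mean above 10.9 CPM. The narrowest of their 95% intervals reached 1.20 log2 units to either side of the estimate. Of these 10, 6 had an unadjusted p under 0.05 and 4 had no overlap. Genes beyond 2-fold and 4-fold were picked for size in these same libraries, which raises all these counts, so the counts are a description.

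The 95% intervals set the limits. In 10616 genes (80.1%) the whole interval lay inside 2-fold in either direction, and in 6839 genes (51.6%) it lay inside 1.5-fold. The other 2632 genes had an interval that reached 2-fold or more on at least 1 side, so that a doubling or halving lay within the 95% limits of these rats. At the median gene the interval reached out to 1.49-fold. An interval wholly beyond 1.5-fold was found in 12 genes, 7 higher and 5 lower, and wholly beyond 2-fold in 2. These intervals are for single genes and carry no adjustment for the number of genes.

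The limits were tighter at higher expression levels. Among 471 genes under 2 CPM the median SE of the log2 fold change was 0.570, and 0.849% of the intervals lay inside 2-fold. Among 4236 genes of 2 to 10 CPM the median SE was 0.340 and 52.9% lay inside. From 10 to 50 CPM, with 5146 genes, the SE was 0.174 and 97.2% lay inside. The 2690 genes of 50 to 200 CPM had a median SE of 0.114, and the 705 genes above that had one of 0.106, with 99.1% and 99.4% inside 2-fold. Inside 1.5-fold the shares in the 5 classes were 0, 4.79, 68.2, 92.1 and 91.8%. From 50 CPM upward, higher counts brought little further precision.

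**Figure D2:**
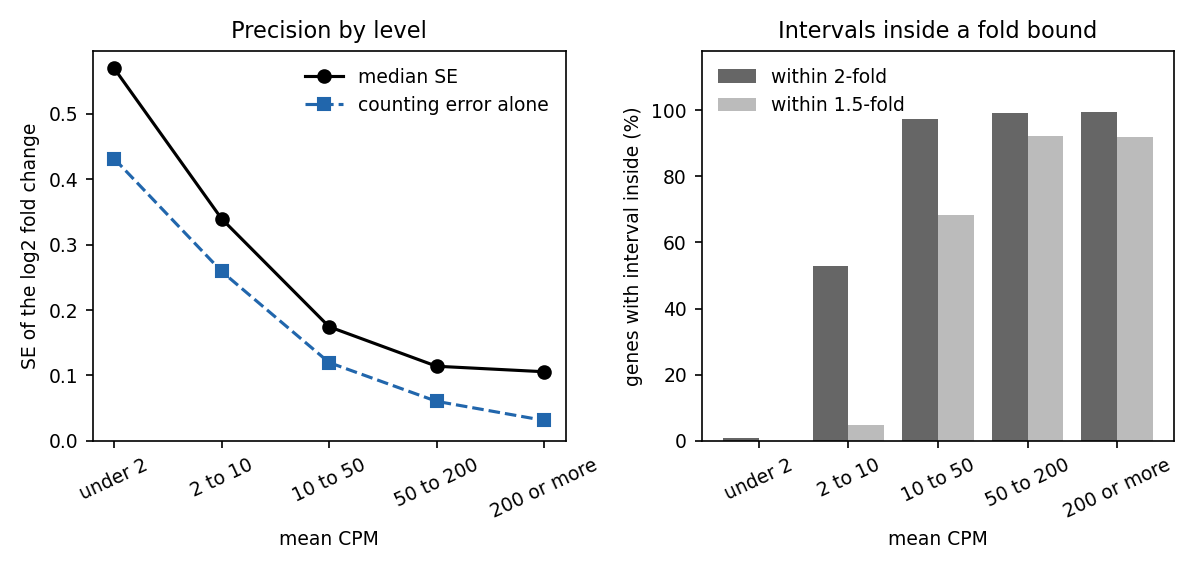
Left, the median SE of the log2 fold change in 5 classes of mean CPM (black) and the part that counting error alone would give (blue); right, the share of genes in each class whose whole 95% interval lay inside 2-fold (dark bars) or 1.5-fold (light bars). The black line levels off at 0.106 while the blue line goes on down to 0.0311, and the bars for 1.5-fold reach 92.1 and 91.8% in the upper 2 classes, from 50 CPM.

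Counting error alone would have given median SEs of 0.432, 0.259, 0.120, 0.0603 and 0.0311 in the 5 classes. The measured SE exceeded this in every class, least in the lower 2 classes (0.570 and 0.340) and by more than 3 times in the highest (0.106). In the highest class the rats differed from each other by a median coefficient of variation of 0.104 beyond counting, against 0.298 in the lowest class. The same numbers give the smallest fold change that could pass at the median SE. For an unadjusted p of 0.05 it was 2.26-fold, 1.63-fold, 1.28-fold, 1.18-fold and 1.16-fold from the lowest to the highest class. A p of 0.05 divided by the number of genes, 3.77e-06, would need 10.6-fold, 4.09-fold, 2.06-fold, 1.60-fold and 1.55-fold. The share of genes with an unadjusted p under 0.05 was 4.25% in the lowest class, 5.45% in the next, and 6.98, 7.40 and 5.82% in the upper 3 classes.

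The 4 genes that the naming rule gave by ID were followed through all libraries. They have the smallest p in each direction among genes of 1 CPM or more whose groups did not overlap, so their p-values describe how they were chosen. Positions are those of the deposited tables, whose genome build is not given in the sources used here.

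ENSRNOG00000015055 lies on chromosome 9 from 85237458 to 85243001, on the minus strand, with 3 exons and 2409 nt of exonic sequence. It had 82.1, 83.2, 87.1 and 87.1 CPM in the fentanyl rats and 63.0, 50.1 and 62.0 CPM in the saline rats. The fentanyl rats were nearly equal, and every saline rat was lower. The means were 84.9 ± 2.63 CPM (SD, n = 4) and 58.4 ± 7.17 CPM (n = 3), on 1347 and 665 counts. The log2 fold change was 0.54 ± 0.11 (SE), a 1.45-fold difference with an interval of 1.24 to 1.70, and it did not pass the test (adjusted p = 0.322). In females the levels were close, 81.3 ± 8.55 CPM under fentanyl and 85.4 ± 5.62 CPM under saline, a log2 fold change of -0.07 (adjusted p = 0.693). The difference between the female and male effects was -0.61, from -0.92 to -0.30 (adjusted p = 0.051). It was the saline males that lay apart from the other NAc groups. In the VTA of males the levels were 186 ± 60.7 and 204 ± 12.9 CPM.

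ENSRNOG00000033261 lies on chromosome 15 from 18399515 to 18415965, on the plus strand, with 9 exons and 3085 nt. It is strongly expressed: the fentanyl rats had 1206, 1372, 751 and 1026 CPM and the saline rats 472, 550 and 655 CPM. N3 lay nearest to the saline rats, but the groups did not overlap. The means were 1089 ± 266 and 559 ± 91.9 CPM, on 17283 and 6389 counts. The log2 fold change was 0.96 ± 0.20, a 1.95-fold difference with an interval of 1.45 to 2.61 (adjusted p = 0.419). In females it rose, from 557 ± 64.6 to 1120 ± 241 CPM, with a log2 fold change of 1.01 (adjusted p = 0.00488). The female effect differed from the male one by 0.05, with an interval of -0.54 to 0.63 (adjusted p = 0.963). The level in the VTA was far lower, with 73.4, 62.0 and 33.7 CPM in N1, N2 and N3 and 24.8 and 27.0 CPM in SM1 and SM3. There too all fentanyl rats lay above the saline rats, with a log2 fold change of 1.12 (0.29 to 1.96), and the adjusted p was 0.956. These are punches from rats already counted in the NAc.

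ENSRNOG00000034066 lies on chromosome 8 from 44990014 to 44993179, on the plus strand, with 9 exons and 1938 nt. The fentanyl rats had 115, 94.8, 145 and 122 CPM and the saline rats 189, 153 and 215 CPM. N3 and SM3 came closest to each other, without overlap. The means were 119 ± 20.7 and 186 ± 31.5 CPM, on 1889 and 2127 counts. The log2 fold change was -0.64 ± 0.12, a ratio of 0.641 with an interval of 0.537 to 0.765 (adjusted p = 0.322). In females it fell, from 248 ± 13.9 to 108 ± 8.45 CPM (log2 fold change -1.19, adjusted p = 6.25e-06). The female effect minus the male effect was -0.55, from -0.91 to -0.19, which did not pass (adjusted p = 0.137). Fentanyl levels were alike in the sexes, while saline levels were 186 CPM in males and 248 CPM in females. In the VTA of males the levels were 381 ± 52.2 and 449 ± 24.1 CPM. Within its span lie 3 single-exon features of 84 to 86 nt on the same strand. They had 3, 20 and 61 counts in the fentanyl rats and 1, 23 and 88 in the saline rats, beside 1889 and 2127 for the gene itself; the last had a log2 fold change of -1.01 with an unadjusted p of 0.0058.

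ENSRNOG00000015750 lies on chromosome 7 from 126420656 to 126465723, on the minus strand, with 9 exons and 3890 nt. The fentanyl rats had 3.52, 4.83, 9.57 and 7.63 CPM and the saline rats 14.7, 11.2 and 18.7 CPM. Both groups varied widely, and N3 was again the fentanyl rat closest to saline. The means were 6.39 ± 2.72 and 14.9 ± 3.75 CPM, on 102 and 171 counts. The log2 fold change was -1.22 ± 0.26, a ratio of 0.430 with an interval of 0.296 to 0.626 (adjusted p = 0.419). In females it fell, from 15.5 ± 1.12 to 8.01 ± 1.76 CPM (log2 fold change -0.93, adjusted p = 0.0152). The difference between the sexes was 0.29, from -0.46 to 1.04 (adjusted p = 0.782). In the VTA it was 13.1 ± 1.00 CPM with fentanyl and 17.4 ± 2.46 CPM with saline (log2 fold change -0.41).

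**Figure D3:**
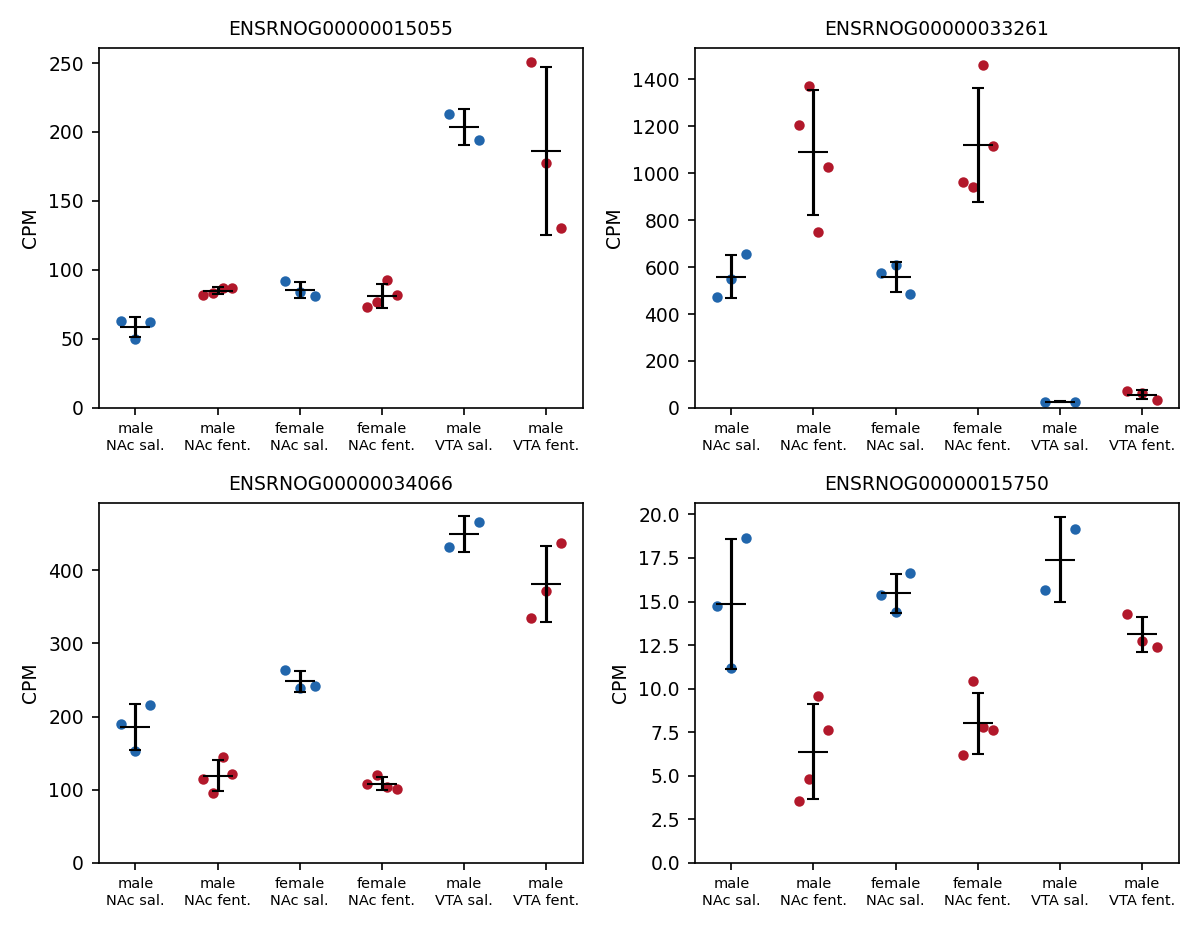
CPM of the 4 genes in each rat (points; blue saline, red fentanyl) with the mean and SD (bars) in the NAc of males, the NAc of females and the VTA of males. Fentanyl and saline males do not overlap in any of the 4 panels for the NAc, which was a condition for choosing these genes. In females, which had no part in that condition, the groups overlap only for ENSRNOG00000015055.

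In the plot of the 4 genes by group, the male and female NAc differ most in the first panel. Each of the 4 genes kept an unadjusted p under 0.05 when any of the 7 libraries was left out. They were chosen for the smallest p in these same libraries, so this is a description and no support. Their log2 fold changes over these 7 fits ran from 0.44 to 0.59, 0.83 to 1.10, -0.76 to -0.52 and -1.47 to -1.01, in the order given. The test was passed in some settings: ENSRNOG00000015055 with no low-count filter and by DESeq2, ENSRNOG00000033261 by DESeq2 and without N3, ENSRNOG00000034066 in all 3 of these, and ENSRNOG00000015750 with no low-count filter. Over the alternatives their adjusted p ranged from 0.00801 to 0.999, 0.000359 to 0.999, 3.36e-05 to 0.999 and 0.00117 to 0.999; DESeq2 gave no adjusted p for the last gene.

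The 16 genes chosen by the smallest unadjusted p, 8 in each direction, had estimates of moderate size. The 8 higher with fentanyl had log2 fold changes of 0.49 to 1.21 and means of 11.9 to 862 CPM. Of these, 6 were also higher in females, and 5 were called there. Of all genes, 58.2% had the same sign in both sexes and 13.5% were called in females. The 8 lower with fentanyl had log2 fold changes of -2.62 to -0.57 and means of 2.30 to 148 CPM, and 7 were also lower in females, 3 of them called. All 16 kept an unadjusted p under 0.05 in each of the 7 fits without 1 library, as did 189 of all 850 genes with such a p. The 16 were chosen for the smallest p in these same libraries, so this is no support for them. In the VTA of males 6 of the 8 and 5 of the 8 had the same sign, beside 56.0% of all genes measured in both regions. Counts this small do not set these genes apart from that share. Their intervals lay inside 2-fold for 4 of the higher and 4 of the lower genes.

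Genes chosen by size rather than by p were less well measured. The 4 largest increases with an unadjusted p under 0.05 and no overlap had log2 fold changes of 1.66 to 3.11 at 1.40 to 11.6 CPM, with intervals reaching 1.05 to 1.71 to either side. The 4 largest decreases had -2.62 to -1.54 at 1.49 to 3.68 CPM, with intervals reaching 0.949 to 1.20. Their adjusted p were 0.518 to 0.571 and 0.419 to 0.616. Across all 531 genes with an unadjusted p under 0.05, a mean of 1 CPM or more and no overlap, the median size was 1.39-fold, and 331 of them had an interval inside 2-fold. As these genes were picked for their differences, the estimates are a description.

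Of the 10 genes beyond 2-fold with a mean of at least 10 CPM, 9 were higher with fentanyl. All 10 had the same sign in females, beside 58.2% of all genes. They were looked at after their values were seen. In 4 of them 1 rat, N7, held most of the fentanyl signal. A feature on chromosome 10 from 15602794 to 15603649, on the minus strand with 3 exons, had 29.3, 89.7, 37.8 and 575 CPM in N1, N2, N3 and N7, and 105, 48.1 and 51.2 CPM in SM1, SM3 and SM4. N7 thus held 78.6% of the fentanyl sum, and without it the log2 fold change went from 1.43 to -0.37. Its neighbour from 15589364 to 15590220 had 244 CPM in N7 and 8.40 to 30.9 CPM in the other fentanyl rats, and its log2 fold change went from 1.52 to -0.53 without N7.

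Another 3-exon feature, on chromosome 1 from 168957460 to 168958836, had 89.6 CPM in N7 and 2.17 to 16.0 CPM in the other fentanyl rats, and went from 1.21 to -0.68. The fourth, on chromosome 10 from 56953691 to 56962161 with 14 exons, had 70.6 CPM in N7 and 0 to 2.66 CPM in the others. Its log2 fold change of 4.35, the highest of all tested genes, was 0.31 without N7. None of the 4 had an unadjusted p under 0.05, with values of 0.123 to 0.289. In the saline group SM1 was the highest of 3 for each of these 4 features, with 23.2 CPM for the one on chromosome 1. Without N7 the estimate was negative for 3 of these features and 0.31 for the fourth, and only 1 or 2 of the 4 fentanyl rats lay above all saline rats. In females, all 4 fentanyl rats lay above all 3 saline rats for each of the 4 features. The female log2 fold changes were 3.26 for the feature from 15602794 and 4.14 for its neighbour (adjusted p = 0.0638 and 0.0461). They were 3.55 on chromosome 1 (adjusted p = 0.068) and 7.92 for the fourth (adjusted p = 0.0584). All 4 estimates were thus positive in females, and 1 of the 4 passed the test there, beside 13.5% of all genes. In the VTA of males, which has no library of N7, all 4 estimates were negative. They were -0.39, -0.34, -0.23 and -0.56 on the log2 scale, in the same order, and none passed the test. How reads that match both neighbours on chromosome 10 were counted is not given. For the neighbour from 15589364 the female means were 156 ± 91.1 CPM with fentanyl and 8.78 ± 2.31 CPM with saline.

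A pair of small features on chromosome 19 behaved otherwise. The first, from 11302125 to 11302938, had 21.7, 30.9, 12.3 and 17.0 CPM with fentanyl and 7.91, 11.2 and 7.66 CPM with saline. The second, 5029 nt further on from 11307967 to 11308740, had 15.7, 26.8, 7.80 and 15.3 CPM against 3.55, 5.15 and 6.70 CPM. All fentanyl rats lay above all saline rats for both, and N2 was the highest and N3 the lowest of the fentanyl rats each time. The log2 fold changes were 1.21 (0.44 to 1.98) and 1.66 (0.61 to 2.71), both with an adjusted p of 0.571. In females both rose, by 1.57 (adjusted p = 0.00872) and 1.75 (adjusted p = 0.0231) on the log2 scale. In the VTA of males they had 10.5, 8.26 and 2.89 CPM against 0.667 and 1.04 CPM, and 16.8, 17.6 and 4.34 CPM against 2.33 and 2.96 CPM, neither passing the test (adjusted p = 0.749 and 0.956). The features are neighbours with 348 and 382 nt of exonic sequence, and how reads that match both were counted is not given.

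A gene on chromosome 2, from 235738416 to 235760352 on the plus strand with 13 exons, had no overlap between the groups either. It had 82.1, 113, 51.1 and 59.1 CPM with fentanyl and 34.9, 30.9 and 32.8 CPM with saline. The saline rats were close together, and the fentanyl rats were all above them and widely spread. The log2 fold change was 1.21 ± 0.26, from 0.64 to 1.79 (adjusted p = 0.419), and 0.96 to 1.37 over the fits without 1 library. In females it rose from 30.8 ± 4.97 to 93.3 ± 21.0 CPM (log2 fold change 1.60, adjusted p = 0.00219). DESeq2 called it in males. In the VTA of males N1 and N2 had 146 and 116 CPM, and N3 had 70.4 CPM beside 69.8 and 74.1 CPM in the saline rats.

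The remaining pair, a feature on chromosome 4 from 30546664 and one on chromosome 7 from 141370491, had overlapping groups. The first had 12.7, 45.0, 10.6 and 17.0 CPM with fentanyl and 9.83, 6.87 and 11.7 CPM with saline, and the second 144, 170, 39.0 and 78.3 CPM against 66.9, 32.9 and 53.8 CPM. N2 was the highest and N3 the lowest rat of the fentanyl group for both. Their unadjusted p were 0.103 and 0.102.

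The female comparison gives a scale for these sizes. The median size of the estimates was 1.19-fold in females against 1.10-fold in males, with the same number of rats. Both medians include sampling error. The median SE was 0.189 in females and 0.194 in males. Both sexes were fitted together and shared the estimate of each gene's spread, so these SEs are close by design. They do not show that rats of each sex varied equally. The 95th percentile was 0.914 on the log2 scale, and 499 genes were beyond 2-fold. The female effect was larger in size than the male one for 8854 of 13248 genes (66.8%). edgeR called 1788 genes in females (13.5%), and 3833 had an unadjusted p under 0.05. The difference between the sexes was called in 102 genes (0.77%), and 1870 had an unadjusted p under 0.05.

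**Figure D4:**
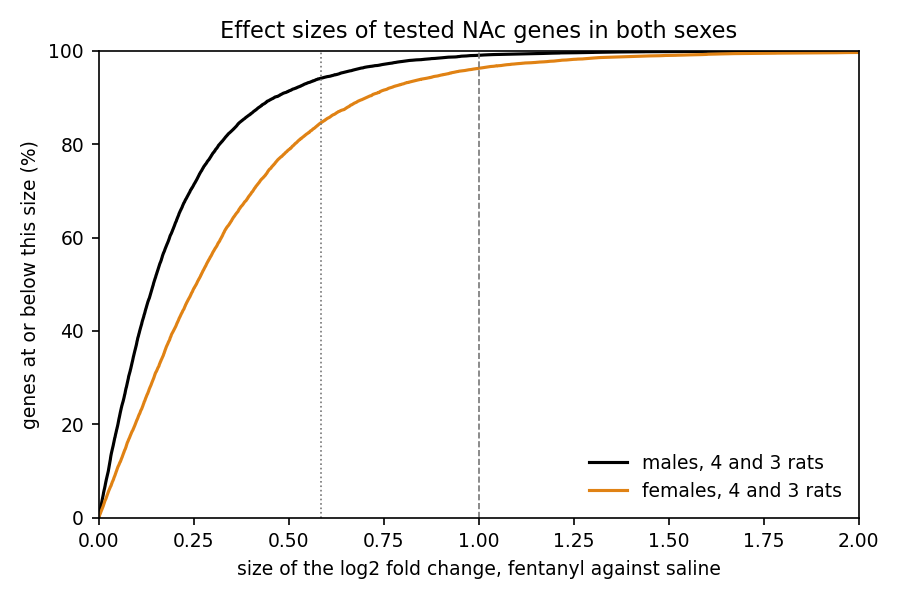
Cumulative share of the 13248 tested genes (vertical axis, %) at or below a given size of the log2 fold change (horizontal axis, sign ignored) in males (black) and females (orange); the dotted line marks 1.5-fold and the dashed line 2-fold. The male curve lies to the left of the female curve, with medians of 0.144 and 0.257.

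The 1788 genes called in females were chosen on the female libraries, but the spread of each gene was estimated from both sexes in 1 fit, so the male intervals and p-values of these genes are not independent of that choice. In males their median size was 0.125 on the log2 scale, against 0.586 in females and 0.144 for all genes in males. The choice by the female test raises the female value and favours genes with a small SE. Neither comparison is thus of like with like. An unadjusted p under 0.05 was reached in males by 213 of them (11.9%, beside 6.42% of all genes), and 1630 (91.2%, beside 80.1% of all genes) had a male interval inside 2-fold. Read from the male side, 213 of the 850 genes with an unadjusted p under 0.05 (25.1%) were called in females, beside 13.5% of all genes. Of these, 195 had the same sign, 115 higher and 80 lower with fentanyl in both sexes. Over all 850 genes, 644 (75.8%) had the same sign in females, against 58.2% of all genes.

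The VTA libraries of the same males were set beside the NAc. Of the 850 genes, 564 had the same sign there, 68.0% of those measured, against 56.0% of the 12924 genes measured in both regions. In the VTA 71 of them (8.56%) had an unadjusted p under 0.05, against 4.60% of all genes. The VTA comparison rests on 3 and 2 rats and called 0 of 14400 genes, with 648 at an unadjusted p under 0.05. Since 5 of these rats also gave the NAc libraries, the regions are not independent.

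Leaving out single libraries showed how much the list of 850 genes rested on each rat. In all 7 such fits 189 of the 850 genes kept an unadjusted p under 0.05, 106 higher and 83 lower with fentanyl. The sign was kept throughout by 847. The 850 were chosen on these same libraries, and each fit reused most of them, so these counts are no support. The number of genes with an unadjusted p under 0.05 was 576 without N2 and 964 without N3.

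Mitochondrial features took a large share of the counts. The share was 28.2, 27.8, 26.9 and 28.4% in N1, N2, N3 and N7 and 24.9, 31.3 and 28.9% in SM1, SM3 and SM4. The fentanyl rats were close together, inside the range of the saline rats. The difference was -0.523 percentage points (exact two-sided permutation p = 0.714, where 35 regroupings cannot give less than 0.0286). Without SM3 it was 0.953 points, and without SM1 it was -2.25 points, so its size and sign rested on single saline rats.

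Among the 13 longer mitochondrial features, of at least 200 nt, 0 passed the test and 0 had an unadjusted p under 0.05, the lowest being 0.271. Their log2 fold changes ran from -0.18 to 0.15 with a median of -0.05, and 5 were positive. All 13 intervals lay inside 2-fold, with bounds from -0.71 to 0.46. The saline range covered the whole fentanyl range in 11 of the 13. SM1 was the lowest of the 7 rats in 10 features and SM3 the highest in 12. Females had a median log2 fold change of 0.64 over the same features, and the VTA of males had one of 0.45. In females 7 of the 13 were called, beside 13.5% of all genes. The female effect exceeded the male effect in all 13 features, beside 6502 of all 13248 genes. It was called different in 1, beside 0.77% of all genes. As the same rats were lowest and highest in most features, the 13 are not separate results.

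**Figure D5:**
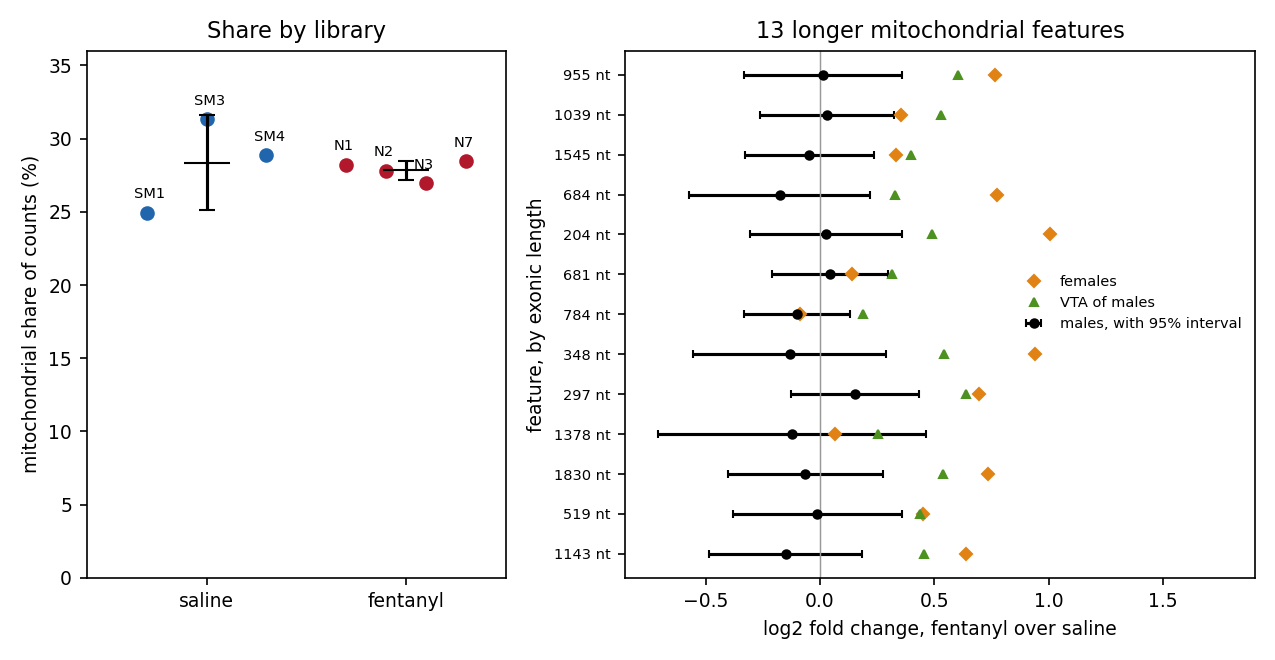
Left, the mitochondrial share of counts (%) in each male NAc library with the group mean and SD; right, the log2 fold change of the 13 mitochondrial features of at least 200 nt in the male NAc (black, with 95% interval), the female NAc (orange) and the male VTA (green), in order of position. The 4 fentanyl libraries lie inside the range of the saline libraries, and all 13 male intervals include 0.

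As the plot of mitochondrial features shows, the male NAc estimates sat on either side of zero, while the estimates of both reference comparisons lay mostly to the right. The short mitochondrial features gave far weaker limits. Of 22 under 100 nt, 16 were tested, with a median log2 fold change of -0.14 and bounds from -3.30 to 2.60. Only 5 of these 16 intervals lay inside 2-fold.

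Counts by chromosome and by gene structure lay around those of all genes. Over the 21 chromosomes, the median log2 fold change lay between -0.02 on chromosome 20 and 0.02 on chromosome 6. The share with an unadjusted p under 0.05 lay between 5.28% on chromosome 4 and 8.31% on chromosome 17, beside 6.42% of all genes. Of 474 genes on the X chromosome, 22 were higher and 12 lower at that threshold (7.17%). Of 420 tested features of the nuclear genome with 1 exon and under 500 nt, 8 were higher and 15 lower (5.48%).

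Some classes had fewer positive values than the 50.6% of all genes. Among 343 genes spanning at least 300 kb, 38.5% had a positive log2 fold change, the median was -0.05, and 10 were higher and 16 lower at an unadjusted p under 0.05 (7.58%). Among 1492 genes spanning 100 kb to under 300 kb, 45.0% were positive, with 40 higher and 60 lower (6.70%). Of 367 genes with 200 to under 500 nt of exonic sequence, 43.9% were positive and 7 were higher against 22 lower (7.90%). The 483 genes higher in the female NAc than in the VTA were another such class, with 40.2% positive and a median of -0.06. Of these, 12 were higher and 21 lower (6.83%). The 157 genes higher in the VTA had a median of 0.04, with 8 higher and 3 lower (7.01%). Of 294 nuclear genes with under 200 nt of exonic sequence, 54.8% were positive, with 7 higher and 3 lower (3.40%). Over all genes the share was 6.42%, with 3.48% higher and 2.94% lower. None of these genes passed the test, and no test of the classes was made.

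Other settings of the test moved the number of calls. In all, 49 genes were called in at least 1 alternative, 32 higher and 17 lower with fentanyl, and all 49 had an unadjusted p under 0.05 in the chosen fit. Of these, 5 were called in 2 or more settings and 2 in at least 3. Most came from the fit with no low-count filter, which called 46 of 24888 genes, 30 higher and 16 lower; all 46 were among the 13248 genes tested otherwise. In that fit the median of the degrees of freedom behind a gene's test was 248880, against 23.6 in the filtered fit, so that for most genes the spread was taken from the trend over all genes. In females 44 of these 46 had the same sign and 19 were called, beside 58.2% and 13.5% of all genes. The spread of each gene was estimated from both sexes, so the female results are not independent of this choice. Of the 6 genes called by DESeq2, 5 were higher with fentanyl and 4 were also called with no filter. In females 4 of the 6 were called, beside 13.5% of all genes, and the same limit holds.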

How the data were processed

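The authors deposited 1 table of raw counts per gene and library, not normalized, per the file headers and values. Per the submitters' processing notes, the tools were STAR 2.5.2b, Subread 1.5.2, featureCounts, DESeq2 and Trimmomatic 0.36, listed without roles. The sources used here do not give the genome build, the annotation, the strand setting or how multiply aligned reads were counted, so overlapping features and close paralogs may share reads. Per the labels, RNA was column-purified, depleted of ribosomal RNA and read as paired ends of 150 nt. Groups follow the labels, and every library of a group is a different rat, so p-values measure the spread between rats.

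The 14 NAc libraries were fitted together in 4 groups of sex and treatment with edgeR 4.0.16 in R 4.3.3: TMM scaling, filterByExpr, robust dispersions and the robust quasi-likelihood F test, two-sided. Calls are Benjamini-Hochberg adjusted p under 0.05 over all genes tested. SEs were derived from the F statistic, and 95% intervals are the log2 fold change plus or minus the t quantile times the SE. The SE from counting alone was computed from the counts behind the group means. The 10 VTA libraries were fitted likewise. Spread used log2 CPM with a prior count of 2. Single values per library were tested by exact permutation, two-sided. The scripts were tested on simulated data.

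Genes to be named had at least 1 CPM and no overlap between groups: the 8 smallest unadjusted p, and the 4 largest fold changes with an unadjusted p under 0.05, in each direction. With no symbol paired to an ID, at most 2 are given by ID in each direction. The 28 gene lists drawn up for opioid, dopamine, striatal, glial and other genes need symbols and were not analysed here. The members and lists were chosen with earlier results of these data known. Alternatives were DESeq2 1.42.0, its size factors, limma 3.58.1 voom, 2 other low-count filters (none, and at least 5 CPM in 3 libraries), male groups alone, a replicate block, removal of mitochondrial features, and each library left out in turn.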

Additional observations from a re-analysis of the deposited data

Results flagged for a closer look

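In the mitochondrial feature starting at 14136, N3 had 33051 CPM and lay apart from the other fentanyl rats, which had 34511 to 34654 CPM. The gap was 0.911 of the range of the 4 rats, above the 0.829 that marks a stray value. This criterion was applied to 23 sets of fentanyl values and chance marks about 1 in 20; the saline rats were too few for it.

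The effect of fentanyl differed between females and males in 102 genes by edgeR (adjusted p under 0.05). In the mitochondrial feature of 204 nt from 7758 to 7961, the female log2 fold change was higher than the male one by 0.98 (adjusted p = 0.0383). The male NAc levels of this feature were 16127 ± 1278 CPM with fentanyl and 15843 ± 3283 CPM with saline.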

How the results depend on the processing

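The count of called genes was 0 in the chosen fit, 6 by DESeq2, 46 with no low-count filter and 2 with the male groups alone; without 1 library it was 0 to 2, the 2 arising without N3. It stayed 0 with DESeq2's size factors, by voom, with the stricter filter and with mitochondrial features removed. The number of genes with an unadjusted p under 0.05, 850 in the chosen fit, was 1386 with no filter, where 24888 genes were tested, and 576 to 964 without 1 library. It was 1079 with the male groups alone, where 12462 genes were tested, and 711 by DESeq2. The number of intervals inside 2-fold, 10616, was 9766 to 10306 without 1 library and 10786 with the male groups alone. The labels' numbers are shared by only 2 pairs of males (N1 and SM1, N3 and SM3), whose residuals correlated at -0.0351 and -0.0219, beside -0.0325 to 0.039 for other pairs, so the numbers were not taken to pair rats. With the replicate block 0 genes were called, 520 had an unadjusted p under 0.05 and 9793 intervals lay inside 2-fold. The difference in mitochondrial share ran from -2.25 points without SM1 to 0.953 points without SM3 over the libraries left out. The signs of the 4 genes given by ID held in all 15 alternatives. The cause of these shifts was not tested. Intervals were widest under 10 CPM: inside 2-fold lay 0.849% of them under 2 CPM and 52.9% from 2 to 10 CPM. No fit at another depth was run.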
